A study of Mus musculus with 9 samples.

Results

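The dual-specificity MAP kinase phosphatases were followed as a family of 9 genes, Dusp1, Dusp2, Dusp4, Dusp5, Dusp6, Dusp7, Dusp8, Dusp10 and Dusp16, taken by gene symbol from the 55471 genes of the count table. RNA came from dendritic cells (DCs) that mouse bone marrow gave in culture with GM-CSF, the growth factor that turns marrow progenitors into DC-like cells. The mice were wild-type C57BL/6 females, 8 to 20 weeks of age, and no group carried a transgene or a deletion. The cells were left unstimulated or were stimulated for 6 h with LPS, the bacterial cell wall component sensed by TLR4, or with IFN-β, the antiviral cytokine sensed by the type I interferon receptor. Each of the 3 conditions had 3 libraries, lettered A, B and C, and the labels do not say whether the libraries of a group came from separate cultures or animals, so p-values measure the spread between these libraries. All 9 members passed the filter on low counts, as did 16260 of all genes. Dusp8 passed only through its LPS libraries, since all 3 of them and only 1 other library, an unstimulated one, reached the minimum.

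These phosphatases remove the activating phosphates from the threonine and the tyrosine of a MAP kinase and so switch it off. Dusp1, Dusp2, Dusp4 and Dusp5 encode nuclear enzymes whose genes are classically switched on by MAP kinase signalling itself. Dusp6 and Dusp7 encode cytoplasmic enzymes that prefer ERK, while Dusp8, Dusp10 and Dusp16 encode enzymes that prefer the stress kinases JNK and p38. In macrophages and DCs, TLR4 activates ERK, JNK and p38, and DUSP1 is known as a brake on p38 and on cytokine production after LPS.

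Library totals ran from 33425803 to 43735199 counts. Values are given as CPM, the counts of a gene scaled to the size of its library, with TMM factors, which corrects for differences in RNA composition, and 3 counts in a library corresponded to 0.0674 to 0.106 CPM. The TMM factors differed between groups, at 1.18 to 1.26 without stimulation, 0.783 to 0.841 with LPS and 0.977 to 1.02 with IFN-β. Scaling by library size alone shifted the median gene by −0.58 under LPS and by −0.31 under IFN-β on the log2 scale, so the changes below are relative to the bulk of the transcriptome. All 7 DC markers were detected in each group, with a summed level of 4631 to 5488 CPM unstimulated, 6421 to 7096 CPM with LPS and 5209 to 5482 CPM with IFN-β. All 5 macrophage markers were detected too, at 1728 to 2121, 1760 to 2241 and 2275 to 2534 CPM in sum. Single macrophage markers went in opposite directions with LPS, with Mertk, Fcgr1 and Adgre1 at means of 121, 97.3 and 158 CPM unstimulated and 404, 446 and 369 CPM with LPS, and Mrc1 and Csf1r at 407 and 1101 CPM unstimulated and 162 and 562 CPM with LPS. The 6 neutrophil markers summed to 8.82 to 22.5 CPM over the 9 libraries. The mast cell and basophil markers reached at most 0.276 CPM and the lymphocyte markers at most 0.354 CPM, with Ncr1 at 0 in the unstimulated libraries, Cd3g at 0 in the LPS libraries, and Cd3e, Cd3g and Ncr1 at 0 in the IFN-β libraries. The part of the culture's makeup in the results was not tested, and in bulk RNA fewer cells of a type and less RNA per cell cannot be told apart. As a check of the labels, 6 LPS-induced cytokine and effector genes, Il12b, Il6, Il1b, Tnf, Ptgs2 and Nos2, summed to 117 to 176 CPM unstimulated, 20495 to 21002 CPM with LPS and 313 to 436 CPM with IFN-β. The 6 interferon-induced genes Ifit1, Mx1, Isg15, Irf7, Rsad2 and Oas1a summed to 243 to 632, 17968 to 22820 and 6810 to 8358 CPM.

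LPS changed all 8 phosphatases that passed the filter on low counts in every condition, and 6 of them rose while Dusp6 and Dusp7, the cytoplasmic ERK phosphatases, fell. Dusp8 passed only through the LPS libraries, which favours higher counts there, so it is set apart and described by its counts. The rises of the other members ran from 1.64-fold for Dusp10 to 10.4-fold for Dusp2, and the falls were 1.71-fold for Dusp6 and 3.34-fold for Dusp7. A call is an adjusted p below 0.05 from edgeR's quasi-likelihood test, adjusted by Benjamini-Hochberg over all 16260 genes. LPS called 68.2% of all genes, 32.8% higher and 35.4% lower, so being called was common in this comparison. Without Dusp8, the members' median log2 fold change was 1.31 against −0.04 over all genes, and their median size of change, regardless of sign, was 1.75 against 0.65. The direction of every member was the same with each scaling, although library size alone lowered Dusp10 to a log2 fold change of 0.13, which was not called. With that scaling 21.9% of all LPS calls were higher, against 48.1% with TMM.

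**Figure D1:**
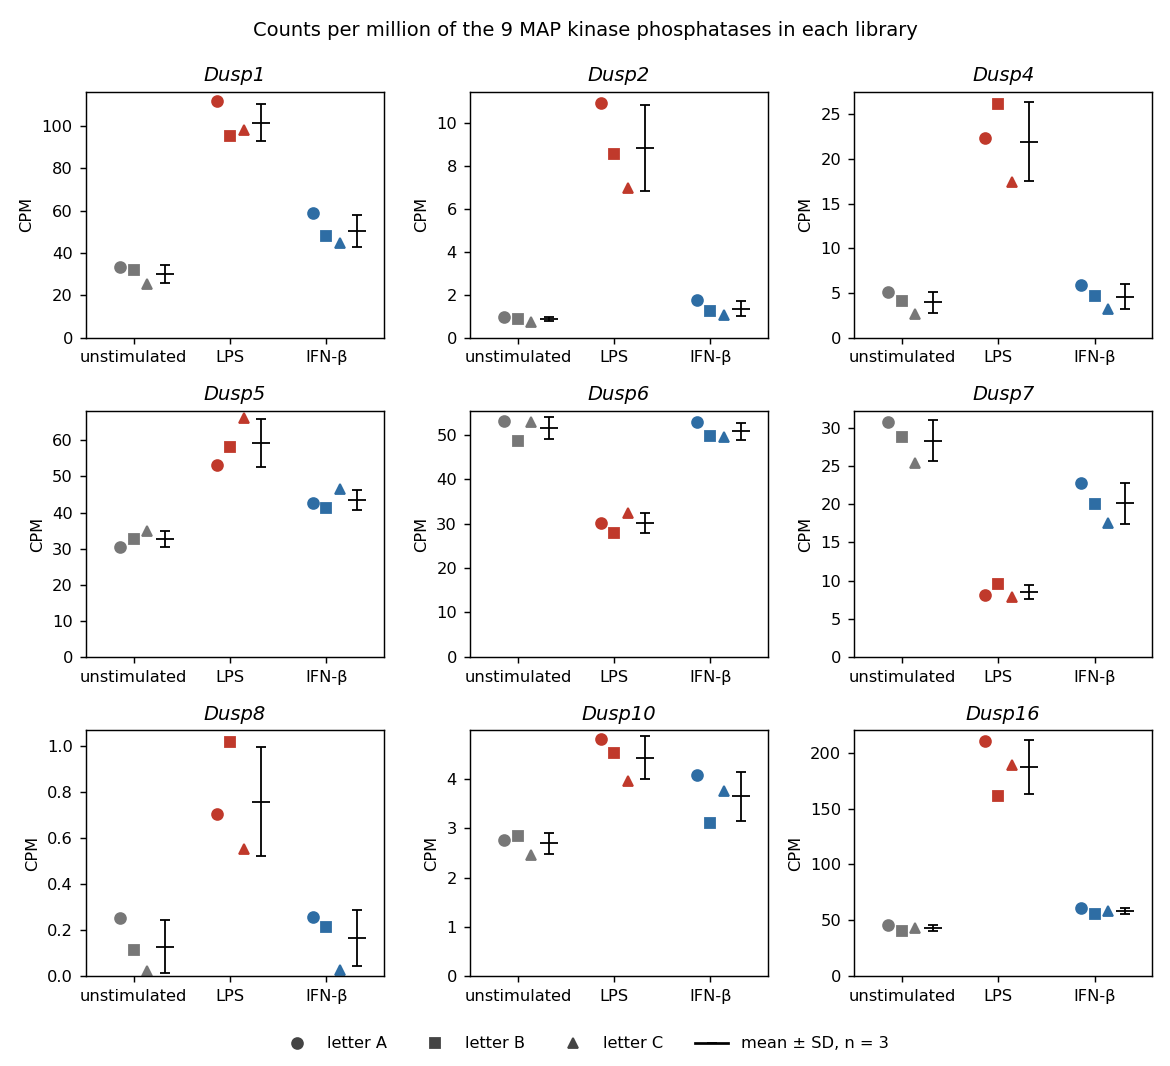
CPM with TMM scaling of each phosphatase in the 9 libraries, on axes that start at 0. Circles, squares and triangles are the libraries lettered A, B and C, and the bar at the right of each group is the mean ± SD (n = 3). The LPS libraries stand apart from the unstimulated ones for all 9 genes, above them for 7 and below them for Dusp6 and Dusp7. Dusp8, among the 7, passed the filter on low counts only through LPS. Over all genes tested, these groups stood apart for 72.4%.

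Among the nuclear, inducible enzymes, Dusp1 stood at 33.1, 31.98 and 25.2 CPM in unstimulated libraries A, B and C, at 111.8, 95.1 and 97.9 CPM with LPS, and at 58.7, 48.0 and 44.5 CPM with IFN-β. The 3 groups were fully separated, with IFN-β between the others. The log2 fold change of Dusp1 was 1.76 with LPS (SE 0.13, edgeR adjusted p = 5.8e-07) and 0.75 with IFN-β (SE 0.13, adjusted p = 7.8e-04). Dusp2, an ERK and p38 phosphatase first known from activated lymphocytes, was scarce without stimulation, at 0.938, 0.853 and 0.745 CPM, or 37, 38 and 33 counts. With LPS it reached 10.9, 8.54 and 6.97 CPM, and with IFN-β 1.76, 1.25 and 1.05 CPM. Every LPS library of Dusp2 was far above the other 6 libraries, and the log2 fold change was 3.38 (SE 0.23, adjusted p = 3.5e-07). Dusp4, a relative of Dusp1 that acts on ERK and JNK, went from 5.07, 4.04 and 2.66 CPM to 22.3, 26.1 and 17.4 CPM with LPS. Its IFN-β libraries, at 5.90, 4.70 and 3.18 CPM, overlapped the unstimulated ones. The log2 fold change of Dusp4 with LPS was 2.49 (SE 0.26, adjusted p = 8.5e-06). Dusp5, a phosphatase selective for ERK, was already well expressed at 30.5, 32.7 and 34.8 CPM and rose to 53.2, 58.2 and 66.3 CPM with LPS. In the IFN-β libraries it lay at 42.7, 41.4 and 46.6 CPM, again between the other groups and without overlap. The LPS change of Dusp5 was 0.86 on the log2 scale (SE 0.09, adjusted p = 8.9e-06), smaller than for the other nuclear enzymes.

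The cytoplasmic ERK phosphatases went the other way. Dusp6, a feedback inhibitor of ERK in growth factor signalling, stood at 53.0, 48.6 and 52.8 CPM unstimulated and at 30.1, 27.97 and 32.4 CPM with LPS. Its IFN-β libraries were at 52.9, 49.8 and 49.5 CPM, inside the unstimulated range. The log2 fold change of Dusp6 was −0.77 with LPS (SE 0.07, adjusted p = 3.4e-06). Dusp7, the closely related enzyme, fell from 30.8, 28.8 and 25.4 CPM to 8.07, 9.50 and 7.83 CPM with LPS, a log2 fold change of −1.74 (SE 0.12, adjusted p = 3.9e-07). With IFN-β, Dusp7 was at 22.8, 19.97 and 17.5 CPM, below every unstimulated library and above every LPS library.

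Of the phosphatases that prefer JNK and p38, Dusp16 rose 4.34-fold with LPS. It went from 45.9, 40.3 and 43.0 CPM to 210.1, 161.6 and 189.2 CPM, with a log2 fold change of 2.12 (SE 0.10, adjusted p = 2.4e-08). Its IFN-β libraries, at 61.4, 55.7 and 58.7 CPM, were above all unstimulated ones and far below all LPS ones. Dusp10 was at 2.76, 2.85 and 2.46 CPM unstimulated, 4.81, 4.52 and 3.96 CPM with LPS and 4.08, 3.11 and 3.76 CPM with IFN-β. Both stimulated groups of Dusp10 lay above the unstimulated one but overlapped each other, and the LPS change was 0.72 on the log2 scale (SE 0.15, adjusted p = 0.0012). Dusp8, best known from brain and heart, was close to the limit of detection, with 10, 5 and 1 counts in the unstimulated libraries, 20, 35 and 18 with LPS and 11, 8 and 1 with IFN-β. In CPM these are 0.253, 0.112 and 0.0226, then 0.708, 1.02 and 0.553, then 0.258, 0.212 and 0.0276, so the C libraries without LPS were below the value of 3 counts. The LPS libraries of Dusp8 were all above the other 6, and since the filter let the gene in through them, this is a description with no test.

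For single genes, the exact two-sided permutation test on log2(CPM + 0.5) gave p = 0.1 for each of the 8 members other than Dusp8 under LPS, the smallest that 3 against 3 libraries allow. The groups did not overlap for any of these 8, and over all genes tested this held for 72.4%. Leaving out each library in turn, every LPS call on these 8 members remained.

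IFN-β changed 6 of the 9 phosphatases, and each of these fitted changes was smaller than the one made by LPS, although for Dusp10 the difference between them was not called. Dusp1, Dusp2, Dusp5, Dusp10 and Dusp16 rose, by 1.68-, 1.61-, 1.33-, 1.36- and 1.36-fold, and Dusp7 fell by 1.41-fold. IFN-β called 46.9% of all genes, 23.6% higher and 23.3% lower. The members' median log2 fold change was 0.43 against −0.02 over all genes, and their median size of change was 0.44 against 0.35. With scaling by library size alone, 22.3% of all IFN-β calls were higher, against 50.3% with TMM, and the members called were Dusp1, Dusp7 and, newly, Dusp6.

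The firmest IFN-β changes were those of Dusp1 and Dusp7. Dusp7 had a log2 fold change of −0.49 with IFN-β (SE 0.11, adjusted p = 0.0050) and, like Dusp1, was called with every alternative. Dusp5 changed by 0.42 (SE 0.09, adjusted p = 0.0034) and Dusp16 by 0.45 (SE 0.10, adjusted p = 0.0031). Both lost the call when libraries were scaled by size alone, at 0.11 and 0.14. Dusp2 and Dusp10 were marginal. The log2 fold change of Dusp2 was 0.69 (SE 0.25, adjusted p = 0.044), and it was called in 3 of 9 fits that left out a library, not without any unstimulated library, LPS library B, or IFN-β library A or B, where it ranged down to 0.44 (adjusted p = 0.20). Dusp10 changed by 0.44 (SE 0.15, adjusted p = 0.029) and was called in 4 of 9 such fits, not without any unstimulated library or IFN-β library A or C, where it ranged down to 0.34 (adjusted p = 0.12).

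Dusp4, Dusp6 and Dusp8 did not pass the test with IFN-β. The interval of the Dusp6 change was narrow, from −0.18 to 0.14 on the log2 scale around −0.02 (edgeR adjusted p = 0.83), so a change of the size that LPS made lay outside it. With library size alone Dusp6 was called lower, at −0.33 (adjusted p = 0.0034), close to the shift of the median gene under that scaling. For Dusp4 the log2 fold change was 0.24 with an interval from −0.35 to 0.83 (adjusted p = 0.50). Compared letter by letter, each IFN-β library of Dusp4 was above the unstimulated library of its letter, by 0.20, 0.20 and 0.22 on the log2(CPM + 0.5) scale, and the fit with the letters as a block gave adjusted p = 0.15. For Dusp8 the interval ran from −1.25 to 2.10, so these counts did not resolve a change in either direction. The IFN-β libraries stood apart from the unstimulated ones for the 6 called members, with an exact permutation p of 0.1 each, and for 58.1% of all genes.

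**Figure D2:**
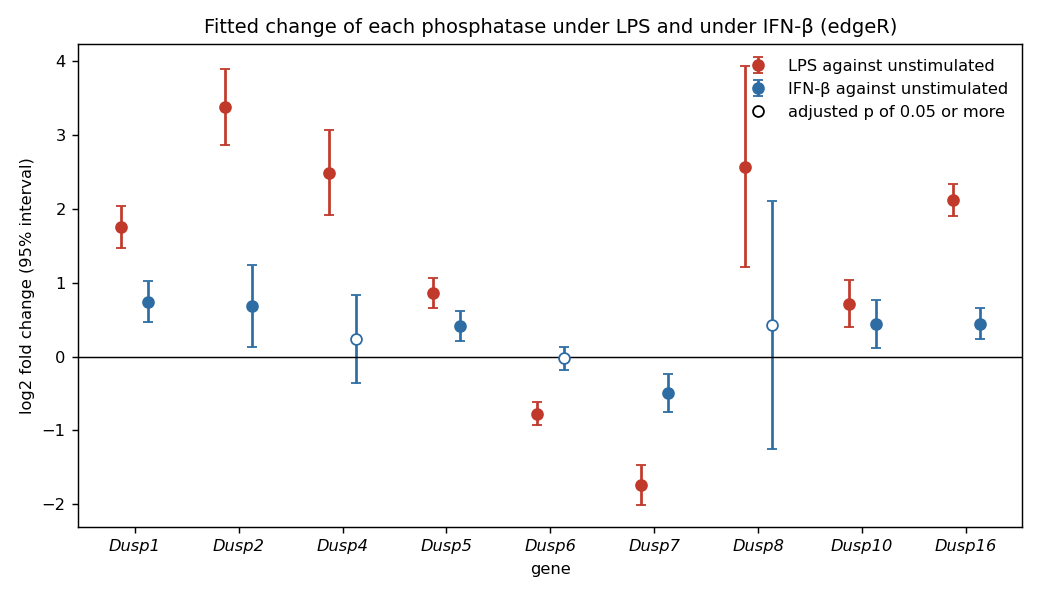
Log2 fold change against unstimulated cells of each phosphatase, with LPS in red and IFN-β in blue, as fitted by edgeR over all 9 libraries. Bars are 95% intervals and open points have an adjusted p of 0.05 or more. The LPS points run from −1.74 for Dusp7 to 3.38 for Dusp2, Dusp8 being shown although it passed the filter on low counts only through LPS, and the IFN-β points lie between −0.49 and 0.75.

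The test of the difference between the responses, which compares IFN-β with LPS directly, called 7 of the 8 members other than Dusp8. Relative to LPS, the IFN-β level was lower for Dusp1, Dusp2, Dusp4, Dusp5 and Dusp16, and higher for Dusp6 and Dusp7. Over all genes this comparison called 49.1%, with 25.8% higher and 23.3% lower. The largest gap was that of Dusp2, at −2.69 on the log2 scale (SE 0.22, edgeR adjusted p = 3.7e-06), followed by Dusp4 at −2.25 (SE 0.26, adjusted p = 4.0e-05). Dusp16 differed by −1.67 (SE 0.10, adjusted p = 3.1e-07) and Dusp1 by −1.01 (SE 0.13, adjusted p = 7.5e-05). For Dusp5 the gap was −0.44 (SE 0.09, adjusted p = 0.0020), and with library size alone it was −0.17 and not called. Dusp7 was higher with IFN-β than with LPS by 1.25 (SE 0.12, adjusted p = 1.3e-05) and Dusp6 by 0.75 (SE 0.07, adjusted p = 1.1e-05). Of these 8, only Dusp10 was not called, at −0.28 with an interval from −0.60 to 0.04 (adjusted p = 0.13). Without Dusp8, the members' median log2 difference was −0.73 against 0.02 over all genes. With library size alone 77.9% of all calls in this comparison were higher, against 52.5% with TMM. The groups did not overlap for 7 of these 8 members and for 56.8% of all genes.

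Levels can be compared between genes only per length, so CPM was divided by the kilobases of each gene's merged exons. In unstimulated DCs, Dusp6 led with 16.4 ± 0.80 CPM per kb (SD, n = 3), followed by Dusp5 at 13.2 ± 0.87, and the libraries of these neighbours did not overlap. Dusp1 at 9.09 ± 1.30 and Dusp7 at 8.44 ± 0.81 CPM per kb overlapped. Dusp16 stood at 5.52 ± 0.36, Dusp4 at 1.43 ± 0.44, Dusp10 at 0.885 ± 0.068, Dusp2 at 0.422 ± 0.048 and Dusp8 at 0.0266 ± 0.024, each below all libraries of the gene before it. After LPS the order began with Dusp1 at 30.7 ± 2.71 CPM per kb, above Dusp16 at 24.0 ± 3.12 and Dusp5 at 24.0 ± 2.68, which overlapped. Dusp6 at 9.63 ± 0.70 and Dusp4 at 8.01 ± 1.61 came next and overlapped, then Dusp2 at 4.40 ± 0.996, Dusp7 at 2.52 ± 0.27, Dusp10 at 1.46 ± 0.14 and Dusp8 at 0.156 ± 0.049 without overlap. With IFN-β, Dusp5 at 17.6 ± 1.09, Dusp6 at 16.2 ± 0.60 and Dusp1 at 15.2 ± 2.24 CPM per kb overlapped each with the next. Dusp16 at 7.52 ± 0.37 and Dusp7 at 5.99 ± 0.79 followed, then Dusp4 at 1.68 ± 0.50 and Dusp10 at 1.199 ± 0.16, which overlapped, then Dusp2 at 0.675 ± 0.18 and Dusp8 at 0.0341 ± 0.025. By the length of the longest annotated transcript the unstimulated order of the means was the same, but Dusp1 overlapped Dusp5 and Dusp16 overlapped Dusp7. By that length, with IFN-β Dusp1 came first at 21.8 CPM per kb, ahead of Dusp6 at 18.1 and Dusp5 at 17.6. With LPS, Dusp16 at 36.6 stood above Dusp5 at 24.0.

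Added over the 9 members, the level per length was 53.8 to 57.6 CPM per kb in the unstimulated libraries. It was 100.2 to 109.6 with LPS and 63.6 to 71.0 with IFN-β, and with TMM scaling these ranges did not overlap. The separation of IFN-β from unstimulated rests on the TMM factors, at 1.18 to 1.26 unstimulated and 0.977 to 1.02 with IFN-β. By library size alone the sums of these groups overlap, and those of LPS stay above both. The share of this sum held by Dusp6 was 29.7% ± 1.6 (SD, n = 3) unstimulated, 9.19% ± 0.61 with LPS and 24.5% ± 0.63 with IFN-β. For Dusp7 the shares were 15.2% ± 0.98, 2.42% ± 0.35 and 9.04% ± 0.75. Dusp1 went from 16.4% ± 1.9 to 29.2% ± 1.4 with LPS and 22.9% ± 2.0 with IFN-β, and Dusp16 from 9.96% ± 0.49 to 22.8% ± 2.0 and 11.4% ± 0.38. Dusp5 kept 23.9% ± 2.4, 22.9% ± 3.0 and 26.7% ± 2.6 of the sum, which overlapped between the groups. By merged exon length, the RNA of the family thus went from a mixture led by Dusp6 and Dusp5 to one led by Dusp1, Dusp16 and Dusp5 after LPS.

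**Figure D3:**
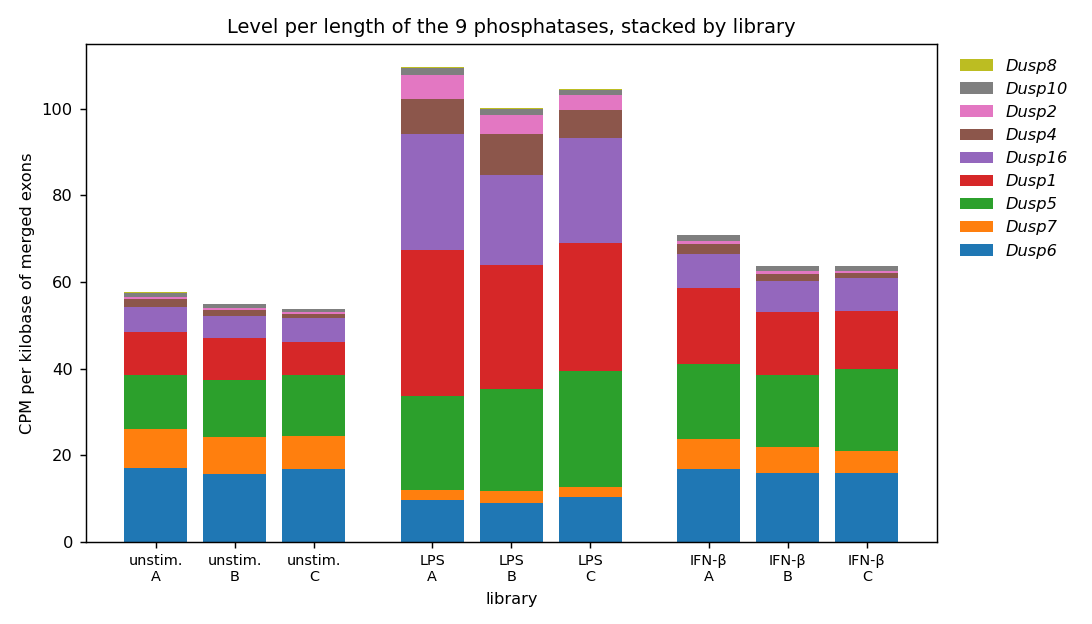
CPM with TMM scaling per kilobase of merged exons of the 9 phosphatases, stacked for each library, with the condition and library letter on the x axis. The sums are 53.8 to 57.6 unstimulated, 100.2 to 109.6 with LPS and 63.6 to 71.0 with IFN-β, and the bottom segments, Dusp6 and Dusp7, are smallest in the LPS libraries.

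Promoter stretches are shown for 4 members picked because the printed part holds the core of the cyclic AMP response element. This element is the site bound by CREB and ATF factors. The pair that fell with LPS is shown beside them. Dusp2 and Dusp10, which rose with LPS, hold no core in that part and are not shown. A link of the element with the LPS changes was not tested. RefSeq windows (GRCm38.p6) from 250 bases before to 50 bases after the start were found for 8 of the 9 members. The stretches below are the 150 bases from 200 to 51 bases before the start, 5′ to 3′ on the gene's strand, and capitals mark TGACG, the core of the element, or its reverse complement CGTCA. The full element TGACGTCA holds one of each, overlapping.
Dusp1 (chr17:26508523-26508672, minus strand): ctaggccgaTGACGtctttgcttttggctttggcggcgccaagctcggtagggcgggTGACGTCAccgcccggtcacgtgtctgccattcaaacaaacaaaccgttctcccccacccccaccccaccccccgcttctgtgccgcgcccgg
Dusp8 (chr7:142095335-142095484, minus strand): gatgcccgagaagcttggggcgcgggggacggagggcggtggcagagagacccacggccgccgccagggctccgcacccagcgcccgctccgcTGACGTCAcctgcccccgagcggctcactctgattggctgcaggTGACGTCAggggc
Dusp16 (chr6:134792679-134792828, minus strand): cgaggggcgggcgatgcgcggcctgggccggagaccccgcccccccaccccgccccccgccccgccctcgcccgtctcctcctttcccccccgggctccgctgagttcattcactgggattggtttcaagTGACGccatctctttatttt
Dusp5 (chr19:53528945-53529094, plus strand): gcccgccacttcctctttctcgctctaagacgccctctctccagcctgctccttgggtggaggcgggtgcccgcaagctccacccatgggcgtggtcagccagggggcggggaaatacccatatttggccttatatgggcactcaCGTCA
Dusp6 (chr10:99263031-99263180, plus strand): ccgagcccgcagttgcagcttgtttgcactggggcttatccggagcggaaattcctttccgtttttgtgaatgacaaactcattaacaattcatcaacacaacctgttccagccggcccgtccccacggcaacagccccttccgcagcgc
Dusp7 (chr9:106368432-106368581, plus strand): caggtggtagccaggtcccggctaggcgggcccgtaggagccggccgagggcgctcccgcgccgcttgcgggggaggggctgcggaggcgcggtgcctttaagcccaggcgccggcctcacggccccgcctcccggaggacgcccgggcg

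Over the whole windows and both strands, TGACGTCA occurred once in Dusp1 and at 2 places in Dusp8, and in 1.8% of the 32851 mouse windows. The core TGACG was in the windows of Dusp1, Dusp2, Dusp5, Dusp8 and Dusp16, and in 20.8% of all windows. It was not in the windows of Dusp6, Dusp7 and Dusp10. A GC box, GGGCGG, was in all the matched members but Dusp6, and in 35.7% of all windows. One form of the kappa-B site, GGGNNTTCC, was found in Dusp5 alone, and in 5.8% of all windows. The other motifs, the AP-1 site TGANTCA, the interferon-stimulated response element core GAAANNGAA, the gamma-activated site TTCNNNGAA and the TATA box TATAAA, were in none of the 8 windows and in 7.8%, 8.6%, 8.3% and 13.6% of all windows. These matches are descriptions of the letters and not sites of binding.

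The members also differ in the 3′ untranslated region, where the pentamer ATTTA is the unit of AU-rich elements, which shorten the life of many immediate-early and cytokine mRNAs and can be bound by the protein that Zfp36 encodes. In the GENCODE annotation of GRCm38, Dusp1 held 4 copies in 690 bases and Dusp2 4 copies in 581 bases, or 5.80 and 6.89 per kb. The median over 19374 coding genes was 1.33 per kb, and 5.4% and 3.5% of those genes were at least as dense as Dusp1 and Dusp2. Dusp7 held no copy in 1778 bases and Dusp6 held 1 in 1189. Dusp8 held 5, Dusp10 and Dusp16 3 each, Dusp4 2 and Dusp5 1, and 66.6% of coding genes held at least 1. The longer form TTATTTA occurred 4 times in Dusp1 and 0 times in Dusp2, and binding of the Zfp36 protein was not tested. The densest 30 bases of the Dusp1 and Dusp2 regions are shown with the pentamer in capitals, as the members with the most copies per length.
Dusp1: agctggtccttATTTATTTAacacccccct
Dusp2: aaattaATTTAattaattaATTTActatat

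The 9 genes lie on 9 different chromosomes of GRCm38. Dusp1 is at chr17:26505590-26562128, Dusp2 at chr2:127336159-127338376, Dusp4 at chr8:34807297-34819894, Dusp5 at chr19:53529109-53542431 and Dusp6 at chr10:99263231-99267489. Dusp7 is at chr9:106368632-106375724, Dusp8 at chr7:142079490-142095843, Dusp10 at chr1:184013302-184075636 and Dusp16 at chr6:134715468-134792625. Exons of 3 members overlap a gene on the opposite strand, and whether the counting used strand is not given in the sources used here, so their reads may not be fully told apart. Dusp5 shares 547 exonic bases with the antisense gene AC137853.2, which had 9 to 16 counts a library against 1203 or more for Dusp5. Dusp1 shares 11 bases with Ergic1, which had 3048 to 3486 counts a library unstimulated, 1214 to 1544 with LPS and 2593 to 2910 with IFN-β, against 1115 to 1424, 3160 to 3263 and 1610 to 2506 for Dusp1. Dusp8 shares 66 bases with Gm32786, which had 0 counts.

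Within groups, several members moved with the library letter. The fit with the letter as a block was used, after the values were seen, to test the letter itself, and called it for 4 of the 9 members, Dusp1, Dusp2, Dusp4 and Dusp16, and for 13.3% of all genes. Dusp4 was lowest in library C of every condition, by 0.67 on the log2 scale against library A (edgeR adjusted p = 0.0046). Dusp2 and Dusp1 were lower in C than in A by log2 differences of −0.61 (adjusted p = 0.025) and −0.32 (adjusted p = 0.017). Dusp16 was lowest in the B libraries, at −0.24 against A (adjusted p = 0.037). Dusp5 went the other way, highest in C in every condition at 0.21 against A, without passing the test (adjusted p = 0.051). Fos, the immediate-early gene induced through ERK, followed the letters more steeply, at 31.96, 15.0 and 9.47 CPM in unstimulated A, B and C, 6.65, 2.59 and 2.49 CPM with LPS and 32.8, 15.8 and 9.94 CPM with IFN-β. In each condition Fos was highest in A, as were Dusp1 and Dusp2. What the letters stand for is not given in the labels, and their part in these values beyond the fit was not tested.

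As a description over the 9 libraries, Dusp6 and Dusp7 correlated with each other at r = 0.93 (Pearson, log2(CPM + 0.5)) and negatively with each of the other 7 members, from −0.978 to −0.754. All pairs among those 7 were positive, from 0.704 for Dusp5 with Dusp8 to 0.987 for Dusp2 with Dusp16. These points share 3 conditions of 3 libraries each and are not independent. Of the genes outside the family, the patterns most like Dusp1 were those of Gm47662 (r = 0.997), Itpripl2 (0.996) and Rab2a (0.996). For Dusp2 they were Ppp4r2 (0.997), Dtx2 (0.997) and Gdf11 (0.996), and for Dusp16 Cpd, Rab32 and Mtpn (0.997 each). Dusp4 was most like Acp5, Cnot2 and Ncoa2 (0.989 each), and Dusp5 most like Cep85l (0.995), Dach1 (0.995) and Mir22hg (0.994). Dusp6 was closest to Dapp1 (0.996), Lrrc8b (0.994) and Fut11 (0.993), and Dusp7 to Inpp4a (0.997), Mrtfb (0.997) and Ubald1 (0.996). The best matches of Dusp8 were Cdc42bpb (0.974), Gm10441 (0.974) and Msl1 (0.972), and those of Dusp10 were Ccndbp1 (0.990), Mtf1 (0.987) and Sdf2 (0.983).

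Around the phosphatases, the MAP kinase pathway changed in both directions. Of 99 tested genes in 6 lists of kinases, targets and inhibitors, LPS called 81, with 33 higher and 48 lower, and IFN-β called 52, with 25 higher and 27 lower. The median size of the LPS change, regardless of sign, was 0.50 over the 9 tested MAP kinases. This list holds the usual substrates of the phosphatases and also atypical members such as Mapk6. LPS called 8 of the 9, with 4 higher and 4 lower. Mapk14, which encodes p38α, fell by 1.26 on the log2 scale with LPS (SE 0.07, edgeR adjusted p = 5.7e-08), from 130.6 ± 4.75 to 54.6 ± 3.17 CPM (SD, n = 3). Mapk3, which encodes ERK1, had a log2 fold change of −0.55 (adjusted p = 2.0e-04). Mapk8 and Mapk9, which encode JNK1 and JNK2, rose by 0.33 (adjusted p = 0.0060) and 0.50 (adjusted p = 3.9e-04) on the log2 scale, and Mapk6, an atypical ERK, rose by 1.32 (adjusted p = 5.4e-05). IFN-β called 4 MAP kinases, but only 2 without unstimulated library B or C or IFN-β library A or B. Among the 4, Mapk9 changed by 0.60 (adjusted p = 2.7e-04), Mapk14 by −0.44 (adjusted p = 3.4e-04) and Mapk13 by −0.76 (adjusted p = 0.032).

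Of 32 upstream kinases and adaptors LPS called 27, with 12 higher and 15 lower, and IFN-β called 18, with 9 in each direction. Map2k1, which encodes the ERK kinase MEK1, rose by 2.02 with LPS (edgeR adjusted p = 8.8e-08) and by 1.21 with IFN-β (adjusted p = 1.6e-05) on the log2 scale. Map2k6, which encodes a p38 kinase, had log2 fold changes of −3.47 (adjusted p = 4.0e-06) and −2.18 (adjusted p = 1.2e-04). Its counts were low, at 96, 80 and 141 unstimulated, 4, 11 and 6 with LPS and 20, 20 and 23 with IFN-β. No LPS library of Map2k6 reached the minimum of the filter on low counts. Map3k8, which encodes TPL2, the kinase that links TLR4 to ERK, rose by 1.30 with LPS and by 0.70 with IFN-β. Of 9 downstream kinases LPS called 6, with 1 higher, and IFN-β called 3, with 2 higher, or 7 with scaling by library size alone. Mapkapk2, which encodes the p38-activated kinase MK2, rose by 2.03 and 0.92, and Rps6ka1, which encodes the ERK-activated kinase RSK1, had log2 fold changes of −1.67 and −0.47.

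Of 19 immediate-early genes LPS called 16, with 6 higher and 10 lower, and IFN-β called 12, with 6 in each direction. Unlike Dusp1 and Dusp2, Fos was lower with LPS, with a log2 fold change of −2.29 (SE 0.58, edgeR adjusted p = 0.0046), and Egr1, another ERK target, had one of −0.57 (adjusted p = 8.3e-04). Myc had the largest called fall of the list, at −3.13 with LPS (adjusted p = 6.2e-08). Zfp36, which encodes the AU-rich element binding protein tristetraprolin, rose by 2.08 with LPS (adjusted p = 7.3e-06) and by 0.60 with IFN-β (adjusted p = 0.035). With IFN-β the largest called changes of the list were those of Atf3, at 1.15, and Klf4, at −1.21 (adjusted p = 0.022). Of 11 RAS-ERK feedback inhibitors LPS called 8, with 3 higher, and IFN-β called 7, with 3 higher. Spred1, which restrains the activation of RAF, rose by 2.04 and 1.196, while Errfi1, an inhibitor of the EGF receptor, had a log2 fold change of −0.96 with LPS. Spry4, a Sprouty inhibitor that is in these counts, passed the filter on low values only through the unstimulated libraries, with 16, 16 and 11 counts there, 6, 7 and 4 with LPS and 5, 3 and 3 with IFN-β.

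Of 19 other phosphatases directed at MAP kinases or of dual specificity, LPS called 16, with 7 higher and 9 lower, and IFN-β called 8, with 3 higher and 5 lower, or 16 with scaling by library size alone. Dusp14, a small phosphatase without the kinase-binding domain of the 9 members, had 4, 0 and 4 counts unstimulated, 54, 75 and 60 with LPS and 16, 12 and 6 with IFN-β. Like Dusp8 it passed the filter on low counts only through the LPS libraries, so its counts are a description, although the list counts include it. Dusp18 had the largest called fall with LPS, at −2.0 (adjusted p = 2.4e-05), and Ssh2, a cofilin phosphatase, the largest with IFN-β, at −1.49 (adjusted p = 8.9e-07). The lists were chosen with earlier results of these data known, and their called shares of 81.8% with LPS and 52.5% with IFN-β stand beside the 68.2% and 46.9% of all genes.

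**Figure D4:**
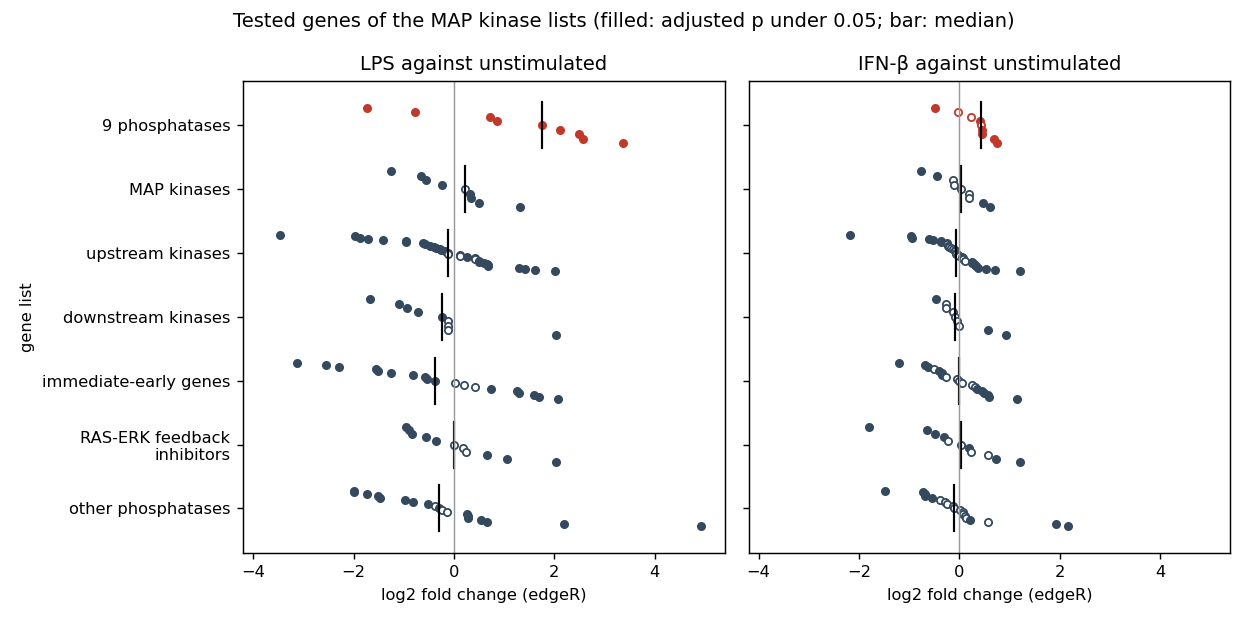
Log2 fold change against unstimulated cells of the 9 phosphatases (red) and of the tested genes of 6 MAP kinase pathway lists (dark), with LPS at the left and IFN-β at the right. Each point is a gene, filled where the edgeR adjusted p is under 0.05, and the bar is the list's median, which for the 9 phosphatases, Dusp8 included, is 1.76 with LPS and 0.43 with IFN-β.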

How the data were processed

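RNA from 9 samples of bone marrow-derived DCs was depleted of ribosomal RNA and sequenced as paired ends. The authors trimmed the reads (Trim Galore 0.6.0 in the submitters' processing notes), mapped them to mm10 with STAR (2.7.8a in those notes) and deposited raw counts per gene for GENCODE M20, 1 column per library. Whether the counting used strand is not given in the sources used here.

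From these counts, edgeR 4.0.16 in R 4.3.3 was used with TMM factors, filterByExpr and quasi-likelihood F-tests over all 9 libraries, with Benjamini-Hochberg adjustment over 16260 genes and a threshold of 0.05. The pseudocount for log2 CPM was 0.5. An SE is the fold change divided by the root of its F. Total counts per library were 33425803 to 43735199, and libraries of a group differed beyond sampling noise. The edgeR fit of the LPS comparison was tested on simulated counts, and the other steps were not. Coordinates and exon lengths came from GENCODE on GRCm38, with 55144 of 55471 identifiers matched, and promoters from RefSeq. Alternatives were DESeq2 1.42.0, other scalings and filters, a fit of the compared groups alone, a letter block and leaving out each library.

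Letters pair the samples by a rule on the data: same-letter libraries deviated together in all 9 pairs of conditions (correlation 0.134 to 0.546). Members and lists were chosen with earlier results of these data known. Genes named beside the members were 9 set genes, of which 1 is not reported here, those with the largest called change of each list in each direction, and the 3 whose pattern was most like each member.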

Additional observations from a re-analysis of the deposited data

How the results depend on the processing

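Over 27 results on single members and 428 alternative fits, 404 kept direction and side of the threshold, 20 lost the call, 1 gained it and 3 changed sign. Dusp8 included, the calls on 9, 6 and 8 members for LPS, IFN-β and their difference were 9, 6 and 8 with the letters as a replicate block too, which changed no other call on a member, and the same with DESeq2. Scaling by library size alone gave counts of 8, 3 and 7: Dusp10 lost its LPS call, Dusp5 its difference, and Dusp2, Dusp5, Dusp10 and Dusp16 their IFN-β calls, while Dusp6 was newly called with IFN-β. Upper-quartile factors left 4 members called for IFN-β, and leaving out 1 library left 4 to 6. At least 10 counts in every library removes Dusp8, whose difference between IFN-β and LPS also lost its call without LPS library B. Dusp8 passed the filter on low counts only through LPS, so its calls are no test. Without Dusp8 the main counts were 8, 6 and 7, beside 68.2%, 46.9% and 49.1% of all genes called. The sign changed only in changes that were not called: Dusp4 with IFN-β at −0.0638 by library size alone, and Dusp8 with IFN-β at −0.0779 without unstimulated library C and below 0 without IFN-β library A too, in a range of −0.0779 to 1.29 over the fits without 1 library. By library size alone, IFN-β called 7 downstream kinases and 16 other phosphatases, and 2 MAP kinases in place of 4 were called without unstimulated library B or C or IFN-β library A or B. The cause was not tested. Of the levels per length, 12 of 27 moved by over 1 SD with the longest transcript. Depth limits Dusp8, whose group means without LPS were 5.33 and 6.67 counts.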
